A study of Mus musculus with 6 samples.

Results

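The tenascin genes Tnc, Tnn, Tnr and Tnxb and the fibronectin gene Fn1 were followed by symbol through single-nucleus RNA-seq libraries of mouse tibial periosteum, before and after fracture. These are 5 of the 30406 genes listed for every library, and all 5 had unique molecular identifiers (UMIs) in the retained nuclei. The tissue came from 12-week-old wild-type mice, C57BL6 in the labels and C57BL/6ScNj in the study's methods, with males and females mixed. Uninjured periosteum is represented by 2 libraries, injured periosteum with hematoma or callus at day 3 post-fracture by 2 libraries, and days 5 and 7 post-fracture by 1 library each. Every library pooled several mice, 4 for each uninjured library and 4 to 9 for each fracture library, so p-values measure only the spread between pooled libraries. The uninjured tissue was scraped from the bone, whereas the fracture samples also held the hematoma or callus, and this difference in the tissue collected cannot be told apart from the effect of the injury.

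Tenascins are large glycoproteins of the extracellular matrix built from repeated domains, among them domains of the fibronectin type. Tenascin-C (Tnc) and tenascin-W (Tnn) are best known from developing, remodelling and healing connective tissue, and tenascin-W is closely tied to bone. Tenascin-X (Tnxb) belongs to mature connective tissue, where it helps to organise collagen fibres, and tenascin-R (Tnr) is a protein of the nervous system. Fibronectin (Fn1) forms the fibrils of the provisional matrix to which cells attach through integrins, and tenascin-C binds it and modulates that attachment.

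In the GRCm38 mouse genome (GENCODE vM21 annotation), Tnc lies on the minus strand at chr4:63959785-64047015, Tnn on the minus strand at chr1:160085029-160153580, Tnr on the plus strand at chr1:159523769-159931729, Tnxb on the plus strand at chr17:34670535-34719815 and Fn1 on the minus strand at chr1:71585520-71653200. Tnn and Tnr are neighbours, 153 kb apart. An antisense transcript, 8030451A03Rik, overlaps 67162 bases of Tnc and an antisense gene, Apol7d, overlaps 364 bases of Fn1. Apol7d is listed in the counts as a gene of its own, whereas 8030451A03Rik is not. Whether the counting used strand is not given in the sources used here. Whether reads of these antisense partners entered the counts of Tnc or Fn1 was therefore not checked.

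The 250 bases before the RefSeq start sites of Tnc, Tnn and Tnxb are printed here 5′ to 3′ on the strand of the gene, from the GRCm38.p6 promoter table of RefSeq, which held Tnc (2 start sites, of which the first listed is shown), Tnn, Tnr and Tnxb. They are shown because stromal Tnc rose and stromal Tnxb fell at day 3, with Tnn above its uninjured levels in both day 3 libraries. They occupy chr4:64047016-64047265, chr1:160153576-160153825 and chr17:34670285-34670534 in this order. Capitals mark matches to any of 4 motifs, each searched on both strands: the TATA box (written as TATAAA), the Sp1 GC box (written as GGGCGG), the AP-1 site (written as TGANTCA) and the CArG box.
Tnc: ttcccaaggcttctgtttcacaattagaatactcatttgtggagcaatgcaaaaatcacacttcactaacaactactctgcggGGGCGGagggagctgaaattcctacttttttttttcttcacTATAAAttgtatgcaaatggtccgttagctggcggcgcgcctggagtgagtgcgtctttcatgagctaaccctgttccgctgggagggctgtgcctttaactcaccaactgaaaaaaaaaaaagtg
Tnn: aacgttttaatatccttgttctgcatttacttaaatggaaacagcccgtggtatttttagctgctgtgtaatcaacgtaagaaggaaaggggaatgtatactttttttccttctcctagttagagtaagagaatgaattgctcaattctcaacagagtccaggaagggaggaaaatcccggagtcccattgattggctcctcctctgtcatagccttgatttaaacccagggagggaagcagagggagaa
Tnxb: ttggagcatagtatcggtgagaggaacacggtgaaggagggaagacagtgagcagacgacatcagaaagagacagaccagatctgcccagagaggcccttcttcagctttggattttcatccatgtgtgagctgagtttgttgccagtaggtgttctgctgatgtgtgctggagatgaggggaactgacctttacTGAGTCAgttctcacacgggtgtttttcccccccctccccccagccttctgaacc
The Tnc sequence held the letters TATAAA from base -126 to -121, counted from the start site, and GGGCGG from base -167 to -162. Whether either works as a promoter element was not tested. The Tnxb sequence held TGAGTCA, a match to the AP-1 site on both strands, from base -55 to -49. The Tnn sequence held none of these letters. Over 27025 promoters of 300 bases (250 before and 50 after the start site), 14.2% held the TATA box, 35.9% the GC box, 7.93% the AP-1 site and 1.57% the CArG box, so these matches are common and are given as a description.

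The 6 libraries held 655 to 4712 barcodes and 1499281 to 29796296 UMIs each. The limits on nuclei left 8067 barcodes, and the removal of myogenic clusters within each library left 7162. The removal of 3 more myogenic clusters after integration left 6419 nuclei, from 382 in day 3 replicate 1 to 2170 at day 5. Their median depth per library was 1186 to 3669 UMIs per nucleus. Of the 8067 barcodes within the limits, 8 were also found within the limits of another library. Clustering without the 5 members and without the other genes followed here gave 13 populations named by their markers and 2 unnamed clusters. The stromal nuclei joined the populations with markers of skeletal stem/progenitor cells (SSPC-like), fibroblasts, injury-induced fibrogenic cells (IIFC-like), osteoblasts and chondrocytes. The uninjured libraries held 125 and 340 of them, the day 3 libraries 128 and 249, and the day 5 and day 7 libraries 1117 and 773. Their make-up differed with time. Fibroblast-like nuclei (clusters 1 and 21) were 74 of 125 and 183 of 340 stromal nuclei before injury, whereas IIFC-like nuclei (clusters 0 and 14) were 77 of 128 and 109 of 249 at day 3. Tnn and Tnc were among the leading genes of cluster 0 although neither had been used to form it.

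In uninjured periosteum, Tnxb was highest in SSPC-like, IIFC-like and fibroblast-like nuclei. Levels are given as the UMIs of a gene per 1000000 UMIs of the same nuclei (CPM). Tnxb stood at 1035 and 1337 CPM in SSPC-like nuclei (26 and 58 nuclei), at 286 and 580 CPM in fibroblast-like nuclei (74 and 183 nuclei) and at 1044 and 776 CPM in the few IIFC-like nuclei (16 and 27 nuclei). The IIFC-like name is that of clusters 0 and 14, named over all libraries together, and does not make these uninjured nuclei injury-induced. Their Tnc stood at 0 and 54.2 CPM, against 1210 and 890 CPM in the IIFC-like nuclei of day 3. Those day 3 nuclei had Tnxb at only 0 and 2.61 CPM. In replicate 1 the exact Poisson 95% intervals, which cover counting error only, overlapped between SSPC-like (746 to 1399 CPM) and IIFC-like nuclei (608 to 1672) and lay above the fibroblast-like interval (209 to 382). In replicate 2 the SSPC-like interval (1205 to 1479 CPM) lay above that of IIFC-like nuclei (621 to 959), which overlapped the fibroblast-like one (533 to 630). Tendon-like nuclei stood at 375 CPM in replicate 2, Schwann-like nuclei at 264 and 211 CPM, endothelial-like nuclei at 79.2 and 81.4 CPM and pericyte/SMC-like nuclei at 48.6 and 109 CPM. The last 2 populations did not differ beyond their spread. Macrophage-like nuclei stood at 450 and 45.1 CPM, with 3 and 12 UMIs in 11 and 61 nuclei, and the 10 neutrophil-like nuclei of replicate 1 at 152 CPM, from 1 UMI. The intervals of both in replicate 1 (92.8 to 1315 and 3.84 to 846) were too wide to place them in an order. Osteoblast-like nuclei were lowest among the stromal populations with at least 10 nuclei, at 49.3 CPM in replicate 2.

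Tnc and Tnn were highest in osteoblast-like nuclei, where Tnxb was low, and were low in the SSPC- and fibroblast-like nuclei that carried Tnxb. Osteoblast-like nuclei of replicate 2 carried 1233 CPM of Tnc (95% interval 1068 to 1416, 69 nuclei) and 376 CPM of Tnn (288 to 483), the highest uninjured levels of both genes. Tendon-like nuclei came next, at 297 CPM of Tnc and 48.4 CPM of Tnn, and carried Tnxb as well, at 375 CPM. In fibroblast-like nuclei Tnc was at 12.4 and 9.28 CPM and Tnn at 0 and 1.03 CPM. In SSPC-like nuclei Tnc was at 0 and 3.56 CPM and Tnn had no UMI in either library. The first uninjured library had only 6 osteoblast-like nuclei, so the osteoblast-like level before injury rests on 1 library.

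**Figure D1:**
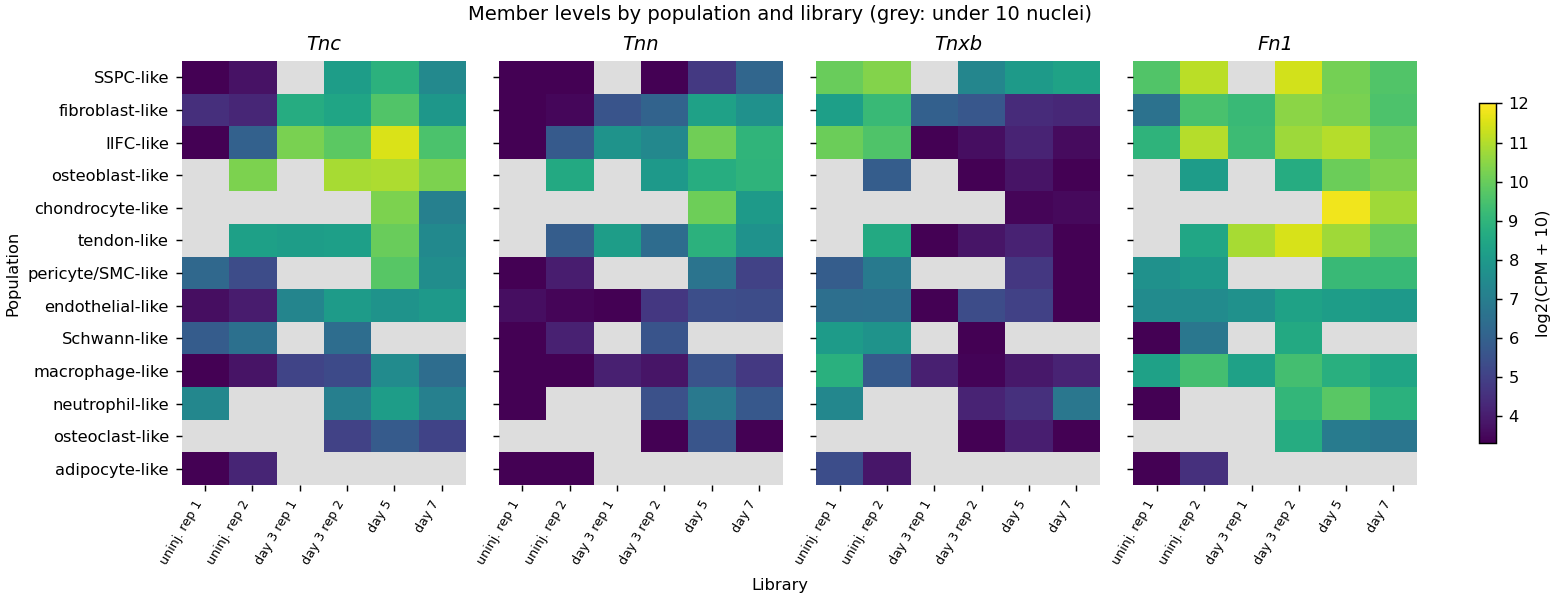
Level of 4 members (panels) in each population (rows) and library (columns), coloured by log2(CPM + 10), with grey where a population had under 10 nuclei in that library. Tnxb is high in the SSPC-, fibroblast- and IIFC-like rows of the uninjured columns, while Tnc and Tnn are high in the IIFC-, osteoblast- and chondrocyte-like rows after fracture.

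After fracture the stromal nuclei gained Tnc and lost Tnxb. Stromal Tnc stood at 65.8 and 141 CPM in the 2 uninjured libraries and at 1121 and 710 CPM in the 2 day 3 libraries. The groups did not overlap. Stromal Tnxb stood at 461 and 676 CPM before injury and at 24.3 and 25.7 CPM at day 3, again without overlap. Most of the uninjured stromal Tnc came from osteoblast-like nuclei, of which the uninjured libraries held 6 and 69. Pooled over both libraries, these nuclei held 213 Tnc UMIs, where all stromal nuclei held 15 and 216. At day 3 the osteoblast-like nuclei (6 and 25) held 398 Tnc UMIs, where all stromal nuclei held 461 and 1272. In an edgeR quasi-likelihood test on UMIs summed per library, the log2 fold change of Tnc was 3.12 (SE 0.499, Benjamini-Hochberg adjusted p = 0.00847) and that of Tnxb was -4.55 (SE 0.404, adjusted p = 0.00152). These were 2 of the 4 members tested in stromal nuclei, where 836 of all 9717 genes tested were called at an adjusted p under 0.05, which is 8.6% (3.64% higher and 4.96% lower at day 3). Tnr had too few UMIs for the test.

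Tnn moved in the direction of Tnc without passing the test. It had no UMI among the 227864 UMIs of the stromal nuclei of uninjured replicate 1, where 3 UMIs would be 13.2 CPM, and stood at 44.4 CPM in replicate 2. At day 3 it stood at 258 and 123 CPM, above both uninjured libraries. In day 3 replicate 1, 1 nucleus held 41 of the 106 stromal Tnn UMIs, and in replicate 2 another held 32 of 221. Without these nuclei the levels were 160 and 106 CPM. The log2 fold change of Tnn in the edgeR test was 2.70 (SE 0.779, adjusted p = 0.0672). Tnn was called in 5 of 16 alternative settings, among them the fits without day 3 replicate 1 (1.90), day 3 replicate 2 (3.27) or uninjured replicate 2. The last left a control with no Tnn UMI and so no bound on its fold. Tnn was not called under DESeq2 (3.13, adjusted p = 0.615) or in nuclei without a Ttn or Neb UMI (2.68, edgeR adjusted p = 0.212). Without uninjured replicate 1 it was not called either (2.09).

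Fibronectin RNA was found in the stromal nuclei of all 6 libraries. Stromal Fn1 stood at 338 and 1038 CPM before injury and at 603 and 1514 CPM at day 3, so the groups overlapped. Its edgeR log2 fold change was 0.54 (SE 0.54, adjusted p = 0.632). The sign turned without uninjured replicate 1 (-0.08, edgeR adjusted p = 0.967) and without day 3 replicate 2 (-0.03, adjusted p = 0.982), and no setting gave a call.

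**Figure D2:**
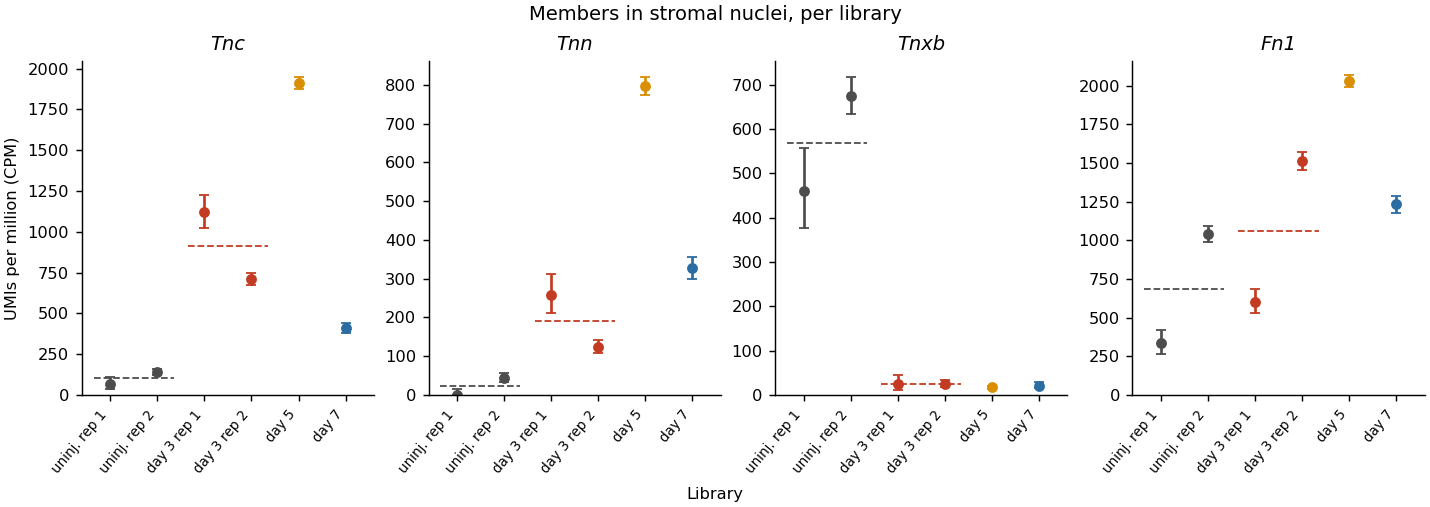
Level of Tnc, Tnn, Tnxb and Fn1 (CPM, linear axes from 0) in the stromal nuclei of each library, with exact Poisson 95% intervals of counting error with a dashed line at the mean of each group of 2 libraries. Tnc and Tnn peak at day 5 (1914 and 797 CPM), Tnxb is above 400 CPM only before injury, and Fn1 overlaps between uninjured and day 3.

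The later time points have 1 library each and enter no test. Stromal Tnc reached 1914 CPM at day 5 (95% interval 1878 to 1951), the highest of the 6 libraries, and stood at 408 CPM at day 7 (378 to 441). Stromal Tnn followed with 797 CPM at day 5 and 326 CPM at day 7. Tnxb stayed at 17.4 CPM at day 5 and 21.2 CPM at day 7, near its day 3 levels. Fn1 stood at 2032 CPM at day 5 and 1234 CPM at day 7. Counted as Tnc UMIs per Tnxb UMI within each library, the stromal ratio was 0.143 and 0.209 before injury and 46.1 and 27.7 in the day 3 libraries, and then 110 on day 5 and 19.2 on day 7. Tnn UMIs per Tnc UMI were 0 and 0.315 before injury and 0.230 and 0.174 in the day 3 libraries, then 0.416 on day 5 and 0.80 on day 7, so the ratio was highest in the last library. The ratio between 2 genes reflects how each is captured as well as its RNA, so it is read only across libraries.

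The number of stromal nuclei with a detected UMI followed the levels. With every nucleus thinned to 500 UMIs, Tnc was found in 4.00% and 8.24% of uninjured stromal nuclei, in 31.2% and 16.1% at day 3, in 39.0% at day 5 and in 13.8% at day 7. Tnxb was found in 20.8% and 23.5% before injury and in 0.803% to 1.56% of the nuclei of the 4 fracture libraries. The exact Clopper-Pearson 95% interval of Tnc in day 3 replicate 1 (23.4 to 40.0%) lay above both uninjured intervals (1.31 to 9.09% and 5.54 to 11.7%), and that of day 3 replicate 2 (11.7 to 21.2%) began where the upper of them ended. Immune-like nuclei, set beside them, gave 0 to 7.53% for Tnc and 0 to 14.3% for Tnxb, the last from 3 of 21 nuclei of uninjured replicate 1. Their Tnc differed between clusters at day 5, at 265 CPM in macrophage-like cluster 2 (222 to 313) and 94.8 CPM in cluster 3 (66.8 to 131). Whether these UMIs came from the immune-like nuclei or from RNA of other cells was not tested. Without thinning, the share with a Tnc UMI was 4.80% and 15.9% before injury and 56.2% and 55.0% at day 3, against 5.92% and 15.2% in the immune-like nuclei of day 3. Median depths at day 3 were 2268 and 5405 UMIs for IIFC-like nuclei and 1632 and 5886 UMIs for macrophage-like nuclei, the largest immune population.

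A few nuclei held much of the Tnc RNA. At day 3, 1 stromal nucleus carried 97 of the 461 Tnc UMIs of replicate 1 (21.0%) and another carried 123 of the 1272 of replicate 2 (9.67%). The 5 richest nuclei held 51.8% and 27.4% of the Tnc UMIs of those libraries, against 8.38% at day 5. Leaving out the nucleus with the most UMIs of each member in each library, a setting chosen after seeing the data, gave an edgeR log2 fold change of 3.24 for Tnc (adjusted p = 0.00704), 2.50 for Tnn (adjusted p = 0.0589) and -4.91 for Tnxb (adjusted p = 0.00101).

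**Figure D3:**
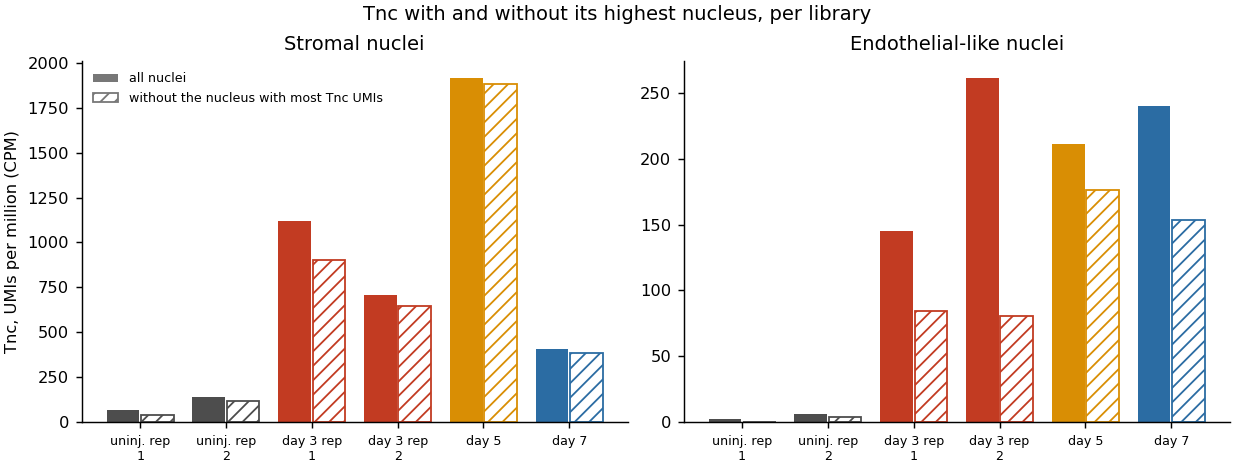
Tnc level (CPM, linear axes from 0) in stromal and endothelial-like nuclei of each library, with all nuclei (filled bars) and without the 1 nucleus that held the most Tnc UMIs (hatched bars). Stromal bars drop from 1121 to 903 and from 710 to 646 CPM at day 3, whereas the endothelial-like bar of day 3 replicate 2 drops from 261 to 80.5 CPM.

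Fibroblast-like nuclei moved in the same directions. They went from 12.4 and 9.28 CPM of Tnc before injury to 406 and 330 CPM at day 3 (39 and 96 nuclei), then to 791 CPM at day 5 and 230 CPM at day 7. Their Tnn went from 0 and 1.03 CPM to 37.6 and 57.4 CPM at day 3, 301 CPM at day 5 and 198 CPM at day 7. Their Tnxb went from 286 and 580 CPM to 52.6 and 41.4 CPM at day 3, and to 10.7 and 9.72 CPM at days 5 and 7. No uninjured level overlapped a day 3 level in any of the 3 genes. The edgeR fit on fibroblast-like nuclei alone, chosen after seeing the data, gave log2 fold changes of 5.14 for Tnc (adjusted p = 0.00513), 5.46 for Tnn (adjusted p = 0.0181) and -3.33 for Tnxb (adjusted p = 0.0113). The fit without IIFC-like nuclei gave 2.78 for Tnc (adjusted p = 0.0286) and -3.56 for Tnxb (adjusted p = 0.00849), so both calls also held without that population.

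IIFC-like nuclei carried Tnc at 1210 and 890 CPM at day 3, 2924 CPM at day 5 and 741 CPM at day 7. The day 5 value was the highest of any population with at least 10 nuclei. Their Tnn stood at 212 and 155 CPM at day 3, 1100 CPM at day 5 and 500 CPM at day 7. Their Tnxb was at 0 and 2.61 CPM at day 3 and at 8.13 and 1.80 CPM at days 5 and 7. SSPC-like Tnxb stood at 148 CPM in the 12 nuclei of day 3 replicate 2, 255 CPM at day 5 (95% interval 195 to 328, 57 nuclei) and 307 CPM at day 7 (66 nuclei). Their 95% interval at day 5 lay above that of each other population with at least 10 nuclei at that time, although it overlapped that of the lymphatic endothelial-like cluster 22. At day 7 the next highest population, neutrophil-like nuclei, stood at 97.8 CPM (39.3 to 202, 45 nuclei), an interval that came close to that of SSPC-like nuclei (205 to 440). SSPC-like Tnc was at 467 CPM at day 5 and 159 CPM at day 7.

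Osteoblast-like nuclei carried Tnc at every time at which they could be measured. Their Tnc stood at 1233 CPM in uninjured replicate 2, 1833 CPM in day 3 replicate 2, 1933 CPM at day 5 and 1228 CPM at day 7, a narrower range than in fibroblast-like nuclei. Their Tnn stood at 376, 242, 419 and 488 CPM in the same libraries, with overlapping 95% intervals between uninjured replicate 2 and each of the others. Chondrocyte-like nuclei, which only the day 5 and 7 libraries held in number (175 and 248 nuclei), carried 1251 CPM of Tnc at day 5 and 127 CPM at day 7, 1069 and 252 CPM of Tnn, and 3593 and 1743 CPM of Fn1. The Fn1 value at day 5 was the highest of any population that day. In chondrocyte-like nuclei all 3 genes were thus lower in the day 7 library, Tnc by the largest factor.

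Joint detection of the tenascins over all stromal nuclei mixed populations of different levels, so it is given over all stromal nuclei and within populations. With nuclei thinned to 1000 UMIs, 31 of 272 stromal nuclei of uninjured replicate 2 had Tnc, 121 had Tnxb and 1 had both. Tnxb was thus found in 3.23% of the Tnc nuclei and in 49.8% of the rest, and Tnn in 22.6% and 2.49%. At day 5, 520 of 1002 stromal nuclei had Tnc and 324 had Tnn. Of the Tnc nuclei 43.8% also had Tnn, against 19.9% of the rest. The same shares were 31.0% and 12.8% at day 7 but 11.1% and 11.4% in day 3 replicate 1 and 9.72% and 5.85% in replicate 2. Of the 31 Tnc nuclei of uninjured replicate 2, 29 were osteoblast-like. Within those 48 osteoblast-like nuclei, Tnn was found in 24.1% of the Tnc nuclei and 31.6% of the rest, and no nucleus had Tnxb. Within IIFC-like nuclei of day 5, Tnn was found in 50.3% of the Tnc nuclei and 29.7% of the rest, and within those of day 3 replicate 1 in 6.25% and 18.2%. Without thinning, the last pair was 28.6% and 17.9%. Tnn was also rarer in the Tnc nuclei of IIFC-like nuclei of day 3 replicate 2 (10.5% and 11.3%) and of SSPC-like nuclei of day 7 (0 and 3.23%). In the other populations and libraries compared that had Tnn, it was more frequent in the Tnc nuclei. Chondrocyte-like nuclei, for example, gave 57.3% and 34.6% at day 5 and 37.5% and 7.02% at day 7. Tnxb was found at day 5 in 4.05% of the fibroblast-like Tnc nuclei and 0.641% of the rest. Only 4 of those nuclei had Tnxb, 3 of them with Tnc. In SSPC-like nuclei the shares were 16.7% and 18.6%. Nuclei of 1 library are not replicates, so these shares are a description. Uninjured replicate 1 had only 2 Tnc nuclei at this depth, of which 1 had Tnxb.

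**Figure D4:**
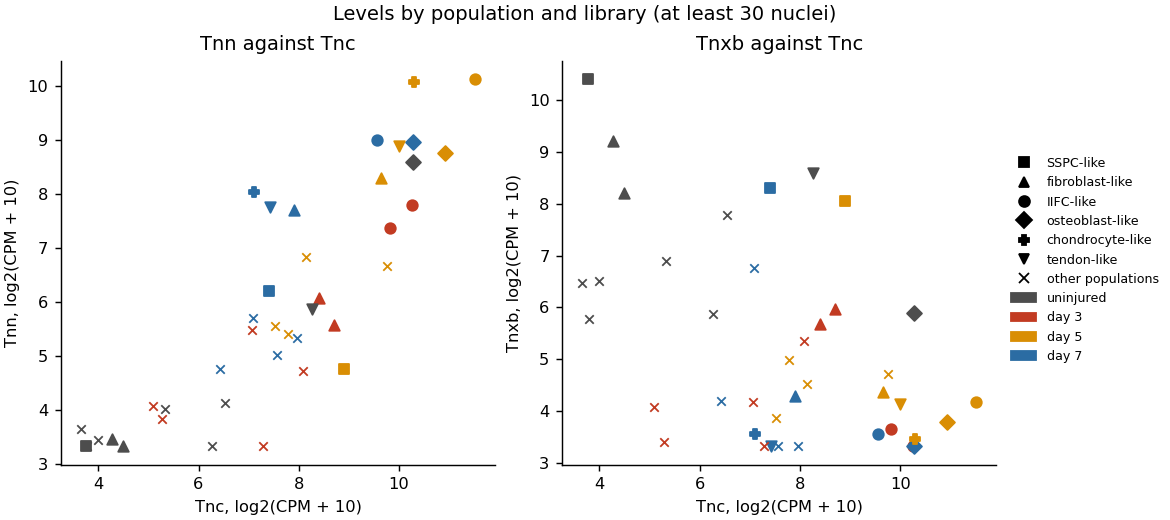
Tnn (left) and Tnxb (right) against Tnc, each as log2(CPM + 10), for the 40 combinations of population and library with at least 30 nuclei. Marker shape gives the population and colour the time. Tnn rises with Tnc, while the uninjured SSPC- and fibroblast-like points sit at high Tnxb and low Tnc and the fracture-stage IIFC-, osteoblast- and chondrocyte-like points at the reverse.

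Over all retained nuclei, whatever their population, Tnxb fell from 179 and 330 CPM to 12.4 and 9.69 CPM at day 3 (edgeR log2 fold change -4.59, SE 0.458, adjusted p = 0.0178), and the call held in 7 of 7 alternatives. Tnc rose from 32.0 and 76.3 CPM to 541 and 238 CPM (2.88, SE 0.616, edgeR adjusted p = 0.0434). The Tnc call was lost without uninjured replicate 1 (2.47, edgeR adjusted p = 0.146) and without uninjured replicate 2 (3.58, adjusted p = 0.0516). These were 2 of 5 members tested, in a fit that called 1105 of 12736 genes, which is 8.68% (2.72% higher and 5.96% lower). Tnn (2.66, edgeR adjusted p = 0.141), Fn1 (0.85, adjusted p = 0.369) and Tnr (-1.22, adjusted p = 0.393) were not called. The make-up of the retained nuclei changed along with these levels. The share of macrophage-like nuclei was 2.30% and 6.62% before injury against 38.7% and 39.7% at day 3, and that of endothelial-like nuclei 35.3% and 24.6% against 9.95% and 4.64%. Neutrophil-like nuclei held 24.9% of day 3 replicate 2 and at most 2.09% of the other 3 libraries. In sums over all nuclei, a changed share of a population and a changed level within it cannot be told apart.

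Outside the stroma, the endothelial-like nuclei showed a higher Tnc level that rests on few nuclei. Endothelial-like Tnc stood at 2.56 and 6.0 CPM before injury (1 and 7 UMIs), 145 and 261 CPM at day 3 (13 and 127 UMIs), 211 CPM at day 5 and 240 CPM at day 7. The edgeR log2 fold change at day 3 was 5.27 (SE 0.52, adjusted p = 0.00566), 1 call among 3 members tested where 278 of 6677 genes were called, which is 4.16% (1.9% higher and 2.26% lower). Of the 127 UMIs of day 3 replicate 2, 89 came from 1 nucleus. Without the richest nuclei the day 3 levels were 84.4 and 80.5 CPM and the call held (5.18, edgeR adjusted p = 0.0185), but it was lost without uninjured replicate 1 (4.98, adjusted p = 0.569) and without day 3 replicate 2 (4.85, adjusted p = 0.200).

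Summed markers of other cells moved in both directions along with this endothelial-like result. With nuclei thinned to 500 UMIs, 2.63% and 3.23% of day 3 endothelial-like nuclei had a Tnc UMI, against 1.97% and 4.98% of immune-like nuclei of the same libraries. At this depth the share thus did not stand clear of that of immune-like nuclei. Unthinned, the shares were 15.8% and 25.8% against 5.92% and 15.2%. The summed level of the 5 IIFC markers in endothelial-like nuclei was 156 to 543 CPM before injury and 280 to 792 CPM at day 3, that of the 6 osteoblast markers 35.8 to 46.3 and 237 to 257 CPM, and that of the 7 macrophage markers 2.56 to 38.6 and 112 to 163 CPM. The IIFC ranges overlapped. The pericyte/SMC markers stood at 95.9 to 171 CPM before injury and at 11.2 to 12.3 CPM at day 3, and the SSPC markers at 317 to 395 and 157 to 292 CPM. The 6 endothelial markers stood at 4734 to 5099 and at 3500 to 4921 CPM, all 6 detected in every library. The Tnc UMIs of day 3 replicate 2 came mostly from cluster 9, with 120 UMIs in 9 of its 28 nuclei, against 3 UMIs in 24 nuclei of cluster 7. In that library Tnc UMIs per Postn UMI were 8 in cluster 9, with 89 of the 120 in 1 nucleus. The same ratio was 0.2 in cluster 7 and 0.528 in the IIFC-like cluster 0. The part that RNA of other cells had in this result was not tested.

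Endothelial-like Tnxb stood at 79.2 and 81.4 CPM before injury, 0 and 30.9 CPM at day 3, 21.9 CPM at day 5 and 0 CPM at day 7, and its change at day 3 was not called (log2 fold change -1.90, SE 0.614, edgeR adjusted p = 0.133). Within the endothelial-like clusters, Tnxb was highest in cluster 22, whose leading genes are the lymphatic genes Mmrn1, Reln and Prox1, at 347 CPM before injury (95% interval 266 to 445, 50 nuclei) and 144 CPM at day 5 (62.2 to 284, 26 nuclei). In immune-like nuclei Tnxb was called lower at day 3 (-5.19, SE 1.35, edgeR adjusted p = 0.0347), in a fit that called 38 of 5247 genes, which is 0.724% (0.0572% higher and 0.667% lower). That call rested on 4 and 13 UMIs before injury and 2 and 6 UMIs at day 3, and was lost in the 3 fits without 1 library that tested it (lowest adjusted p 0.383, without day 3 replicate 1) and under DESeq2 (-4.85, adjusted p = 0.813). Without uninjured replicate 2 it did not pass the low-count filter and was not tested. Dcn, a proteoglycan gene of stromal cells, was also called lower in the same nuclei (-2.72, SE 0.687, edgeR adjusted p = 0.0261), a call that held in 0 of 6 alternatives (adjusted p = 0.338 without uninjured replicate 1 and 0.349 without replicate 2, and near 1 without either day 3 library). The part that RNA of stromal cells had in both results was not tested. Immune-like Tnc and Fn1 were not called.

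Among other populations with at least 10 nuclei, tendon-like Tnc stood at 297 CPM in uninjured replicate 2, 274 and 291 CPM at day 3, 1017 CPM at day 5 and 162 CPM at day 7. Pericyte/SMC-like Tnc stood at 66.9 and 30.3 CPM before injury, 858 CPM at day 5 and 179 CPM at day 7. Tendon-like Fn1 stood at 345 CPM in uninjured replicate 2 and at 1838 and 2808 CPM at day 3, with 14 and 27 nuclei. Macrophage-like Fn1 stood at 300 and 668 CPM before injury (2 and 178 UMIs, in 11 and 61 nuclei) and 305 and 664 CPM at day 3 (148 and 531 nuclei). These levels join unlike clusters. Pooled over both day 3 libraries, Fn1 stood at 1487 CPM in macrophage-like cluster 3 (1420 to 1557) and at 188 CPM in cluster 2 (169 to 208). Before injury, cluster 2 stood at 105 CPM (60.1 to 171), and cluster 3 held only 0 and 11 nuclei. The part that the mix of clusters had in the macrophage-like levels was not tested. The nuclei of the 3 integrated myogenic clusters, which were left out, carried Tnc at 0 CPM in both uninjured libraries and at 5.79 and 102 CPM at day 3. These clusters held 2, 4 and 0 nuclei in uninjured replicate 1 and 9, 6 and 0 in replicate 2. At day 3 they held 171, 141 and 24 nuclei in replicate 1 but 6, 3 and 6 in replicate 2. All but the level of day 3 replicate 1 thus rest on few nuclei, and no change is read from them.

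Tnr was rare throughout, with 102 UMIs in 55 of the 6419 retained nuclei. The uninjured libraries held 18 and 24 of these UMIs, the day 3 libraries 5 and 37, the day 5 library 17 and the day 7 library 1. Pericyte/SMC-like nuclei held 35 of the UMIs in 7 nuclei, 16 of them in 1 nucleus of uninjured replicate 1. Schwann-like nuclei, the nerve-associated cells of this tissue, held 7 UMIs in 5 of 75 nuclei. With so few UMIs, no order of the populations could be read for Tnr.

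The genes around the members were followed in 4 lists, and the share of members called is read against the 8.6% of all genes called in stromal nuclei. The receptors of tenascins and fibronectin had 12 of 16 genes tested, none called higher and 3 lower at day 3, with a median log2 fold change of -0.69 beside 0.06 over all genes tested. Itga9, an integrin subunit that binds tenascin-C, stood at 252 and 283 TMM-normalised CPM before injury and 89.9 and 92.5 at day 3 (-1.55, SE 0.322, edgeR adjusted p = 0.0204). Itgb3, a subunit of the alpha-v beta-3 integrin, was also lower (-2.55, SE 0.567, edgeR adjusted p = 0.0254), as was Tlr4, an innate receptor that tenascin-C activates (-1.47, SE 0.361, adjusted p = 0.0367). Itga9 was called in 9, Itgb3 in 12 and Tlr4 in 8 of 16 alternatives, and each was lost without uninjured replicate 2 (edgeR adjusted p = 0.0873, 0.265 and 0.225). Itga9 was also lost without day 3 replicate 2 (adjusted p = 0.0590), and Tlr4 without day 3 replicate 1 (0.0891) or replicate 2 (0.0779). Itga5 and Itgav, the alpha subunits of fibronectin-binding integrins, were not called.

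The matrix partners had 16 of 18 genes tested, 2 called higher and 2 lower, with a median of 0.74. Vcan, the hyaluronan-binding proteoglycan versican that tenascins bind, rose from 220 and 293 to 1351 and 709 TMM-normalised CPM (1.99, SE 0.423, edgeR adjusted p = 0.0219). Fbln2, the matrix protein fibulin-2, rose from 110 and 157 to 576 and 457 (1.92, SE 0.354, adjusted p = 0.0143). The other pair went the way of Tnxb. Eln, which encodes elastin, fell from 201 and 213 to 19.7 and 48.5 (-2.47, SE 0.435, edgeR adjusted p = 0.0123), and Dcn, the collagen-binding proteoglycan decorin, from 920 and 2219 to 185 and 412 (-2.38, SE 0.545, adjusted p = 0.0291). Without uninjured replicate 2 the calls of Vcan (edgeR adjusted p = 0.0847), Eln (0.0607) and Dcn (0.140) were lost, and without uninjured replicate 1 those of Vcan (0.0819) and Fbln2 (0.0558). Vcan was called in 9, Dcn in 12, Eln in 13 and Fbln2 in 12 of 16 alternatives. In fibroblast-like nuclei only, the edgeR adjusted p of the 4 genes was 0.0543, 0.146, 0.229 and 0.0548 in that order, and without IIFC-like nuclei 0.0985, 0.125, 0.0948 and 0.0540, so none was called within either selection. Summed markers of other cells moved in the stromal nuclei as well, with the 7 macrophage markers at 4.39 to 17.6 CPM before injury and 112 to 394 CPM at day 3 and the 6 endothelial markers at 192 to 329 and 24.3 to 43.0 CPM. Their part was not tested.

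The regulators of Tnc, with the TGF-beta ligands and receptors, Smad3, Prrx1, Egr1 and Yap1 among them, had all 16 genes tested, with a median of 0.41 in stromal nuclei. None was called by edgeR or DESeq2, and 3 had an unadjusted edgeR p under 0.05. The other matricellular genes had all 14 tested, 2 called higher and none lower, with a median of 0.83. Postn, the fibronectin- and tenascin-binding protein periostin, rose from 96.1 and 103 to 994 and 1303 TMM-normalised CPM (3.52, SE 0.384, edgeR adjusted p = 0.00221), and was called in 16 of 16 alternatives. Postn is one of the markers that name the IIFC-like clusters, but it was not among the genes used to form them. Cyr61, a matricellular protein that binds integrins, rose from 4.57 and 25.2 to 47.8 and 215 (2.82, SE 0.741, edgeR adjusted p = 0.0474), a call kept in 6 of 16 alternatives and lost without either uninjured replicate (adjusted p = 0.0902 and 0.110) or day 3 replicate 2 (0.410).

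**Figure D5:**
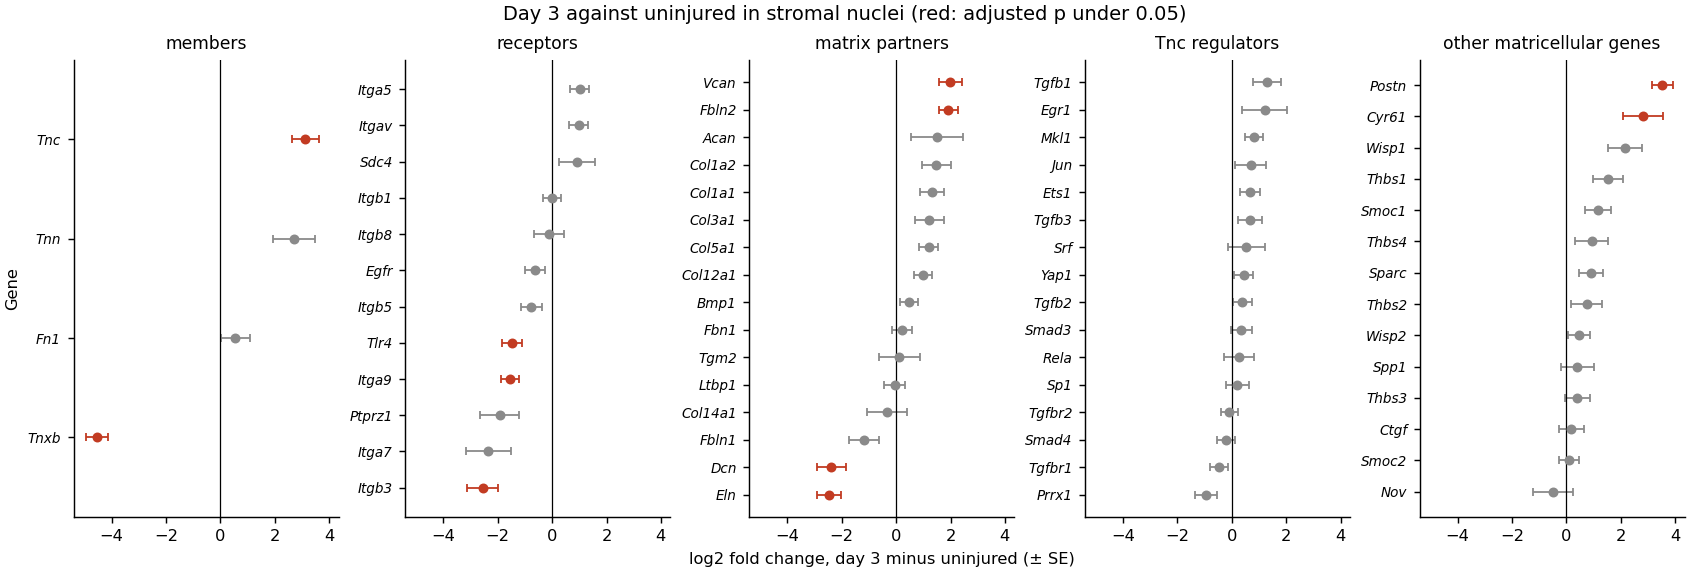
Log2 fold change from uninjured to day 3 in stromal nuclei (edgeR, 2 against 2 libraries, points with ± SE) for the members tested and the 4 gene lists, one gene per row, with red for an adjusted p under 0.05. Tnc and Postn lie furthest right and Tnxb furthest left among the called genes, and no Tnc regulator is red.

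Over all retained nuclei, where 8.68% of genes were called, Itga8 (-4.25, edgeR adjusted p = 0.0257), an integrin subunit that binds fibronectin and tenascin-C, Itgb3 (-2.10, adjusted p = 0.0434) and Eln (-4.32, adjusted p = 0.0178) were called lower. Postn (3.48, edgeR adjusted p = 0.0190), Tgfb1 (1.55, adjusted p = 0.0495) and the matricellular genes Spp1 (2.53, adjusted p = 0.0299) and Thbs1 (1.72, adjusted p = 0.0445) were called higher. Postn and Eln were called in 7 of 7 alternatives and Itga8 in 5, whereas Tgfb1, Spp1 and Thbs1 were called in 3 and Itgb3 in 2. Without uninjured replicate 1 the edgeR adjusted p was 0.0539 for Itga8, 0.122 for Spp1, 0.207 for Itgb3, 0.233 for Tgfb1 and 0.234 for Thbs1. The last 4 were also lost without uninjured replicate 2 (0.0553, 0.0910, 0.194 and 0.0964) and without day 3 replicate 2 (0.0524, 0.0726, 0.126 and 0.110), and Itgb3 without day 3 replicate 1 (0.0564). The list medians were -0.16 for receptors, 0.58 for matrix partners, -0.02 for Tnc regulators and 0.51 for other matricellular genes, beside 0.01 over all genes tested. The shift in make-up given above for all retained nuclei also applies to these genes, and its part was not tested.

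In endothelial-like nuclei, 4 of the 13 matrix partners tested were called higher and 2 lower, with a median of 1.63 beside -0.01 over all genes. Over all genes tested in these nuclei 4.16% were called, 1.9% higher and 2.26% lower. Those higher were the fibrillar collagen genes Col1a1 (3.28, edgeR adjusted p = 0.0231), Col1a2 (2.57, adjusted p = 0.0231) and Col3a1 (3.37, adjusted p = 0.0178), and Col12a1 (3.81, adjusted p = 0.0247), whose collagen lies on the surface of such fibrils. Col3a1 is itself one of the 5 IIFC markers. In these nuclei the summed osteoblast markers (35.8 to 46.3 CPM before injury, 237 to 257 at day 3) and macrophage markers (2.56 to 38.6, then 112 to 163) were higher at day 3. The IIFC markers (156 to 543, then 280 to 792) overlapped. The pericyte/SMC markers (95.9 to 171, then 11.2 to 12.3) and SSPC markers (317 to 395, then 157 to 292) were lower. The part that RNA of other cells had in the collagen calls was not tested. Those lower were Eln (-2.50, edgeR adjusted p = 0.00942) and Fbn1 (-1.40, adjusted p = 0.0352), the fibrillin of elastic microfibrils. Itga9 was the 1 receptor of 7 tested that was called (-1.81, edgeR adjusted p = 0.0210). All 7 of these calls were lost both without uninjured replicate 1 and without day 3 replicate 2, where the adjusted p was 0.569 to 0.607 and 0.181 to 0.346. Itga9 (0.0869), Col12a1 (0.0974) and Fbn1 (0.132) were also lost without day 3 replicate 1, and Fbn1 without uninjured replicate 2 (0.0980). No gene of the 14 Tnc regulators or 6 other matricellular genes tested was called in endothelial-like nuclei by edgeR or DESeq2, with 2 and 4 at an unadjusted edgeR p under 0.05 and medians of 0.07 and 1.61. The receptor median was 0.23. In immune-like nuclei, where 0.724% of genes were called, the medians were 0.69, 1.01, 0.31 and 1.22 for receptors, matrix partners, Tnc regulators and other matricellular genes, beside 0.16 over all genes, and Dcn was the 1 gene called by edgeR, with 5 list genes at an unadjusted p under 0.05 and none called by DESeq2.

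Over the 40 combinations of 11 populations and libraries with at least 30 nuclei, and among 4062 genes, the gene with the pattern most like that of Tnc was Tnn, with a Pearson correlation of 0.857 on the log2(CPM + 10) scale. It was followed by Col12a1 at 0.838, Postn at 0.836, Adam12, a metalloprotease, at 0.828 and Ncam1, a cell adhesion molecule, at 0.813. The genes most like Tnn were Edil3, a matrix ligand of integrins, at 0.876, Col12a1 at 0.862, Gm13832 at 0.860, Ncam1 at 0.860 and Col11a1 at 0.859. Col12a1 and Ncam1 stood on both lists. For Tnxb they were Abca8a at 0.819, the SSPC marker Pi16 at 0.804, Lncpint at 0.799, Aldh1a1 at 0.768 and Stxbp6 at 0.758. Tnc and Tnxb were correlated at -0.493 and Tnn and Tnxb at -0.510. The genes most like Fn1 were Rrbp1, a ribosome-binding protein of the endoplasmic reticulum, at 0.828, Clint1 at 0.818, Trps1 at 0.804, Uso1, a vesicle tethering factor, at 0.784 and Arf4, a small GTPase of the secretory pathway, at 0.779, and Fn1 and Tnc were correlated at 0.486. Points of 1 library share its depth and its nuclei share the pool, so the correlations are a description of these 40 points.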

How the data were processed

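The authors prepared nuclei from pooled mice, sequenced 10x Genomics 3′ libraries and, per the file headers, made the gene by barcode UMI counts with Cell Ranger 6.0.0 (uninjured replicate 1, day 5 and day 7) or 7.1.0 (uninjured replicate 2 and both day 3 libraries). The deposited counts are whole UMI counts per gene and barcode, not normalised. The study's methods and the processing notes name the mm10 mouse genome with intronic and exonic reads, whereas the protocol label names a human reference. The gene identifiers are mouse, and mouse is used here. Because the version splits the uninjured group, the fit without uninjured replicate 1 is also the comparison of day 3 within version 7.1.0. Whether both versions counted introns alike could not be checked from the files, and the day 5 and day 7 levels set beside those of day 3 carry the same split. Replicate numbers follow the deposit order.

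The members and gene lists were chosen with earlier results of these data known. As in the study, a barcode was kept if it had 200 to 5000 genes, less than 2% of its UMIs from mitochondrial genes and less than 1.5% from genes of ribosomal proteins. The remaining counts were integrated and clustered with Seurat 5.3.0 (20 principal components, 2000 variable features, resolution 1.3), leaving the members, list genes and markers out of the features. Each of 27 clusters was named from its markers, by a rule whose details were set after seeing the data. Before integration, clusters of a single library with at least 3 of 6 myogenic markers, each in at least 50% of nuclei, were removed. After integration, the 3 of the 27 clusters that the naming rule called myogenic were removed as well. A doublet caller (Scrublet, expected rate 6%) marked 52 barcodes, too few to rely on, and these were kept. Levels are CPM with exact Poisson 95% intervals. Shares are of nuclei thinned to 500 UMIs, or 1000 for joint detection. Intervals cover counting error only.

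UMIs were summed per library and nucleus class and tested with edgeR 4.0.16 (filterByExpr, TMM, quasi-likelihood F test, Benjamini-Hochberg over all genes tested, threshold 0.05) for day 3 against uninjured, 2 libraries each. A difference between nucleus classes was tested as an interaction in 1 fit with library as a block. Counts were simulated for the stromal comparison (9127 genes tested) with 1 dispersion of 0.110 shared by all genes. Of the 178 tested genes changed by a log2 fold of 3, 165 were called, as were 3 unchanged genes. In the data the dispersion differs between genes, so these rates may not hold there. DESeq2 1.42.0 was an alternative, as were no low-count filter, leaving out each library, all barcodes, other clusterings and other nucleus selections. Named genes are the members, every called gene of the 4 lists, the 5 genes most like each member with at least 200 UMIs (mean CPM of at least 50, at least 30 nuclei per point) and the population markers. Tools also included R 4.3.3, Python 3.11.15, scanpy 1.11.5, numpy 2.4.6, scipy 1.17.1, pandas 2.3.3 and matplotlib 3.10.9.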

Additional observations from a re-analysis of the deposited data

Results flagged for a closer look

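The change of Tnc and of Tnxb at day 3 differed between endothelial-like and stromal nuclei of the same libraries, by a test of the difference itself (an interaction in an edgeR quasi-likelihood fit of 8603 genes, of which 407, or 4.73%, were called). The log2 fold change of Tnc was larger by 2.42 in endothelial-like nuclei (SE 0.623, edgeR adjusted p = 0.0125). Of the 216 stromal Tnc UMIs of uninjured replicate 2, fibroblast-like nuclei held 9 and IIFC-like nuclei 6. In fibroblast-like nuclei only, the log2 fold change was 5.14, beside 3.12 in all stromal nuclei and 5.27 in endothelial-like nuclei. The part that the stromal make-up had in the difference was not tested. The difference was 2.59 without uninjured replicate 2 (edgeR adjusted p = 0.326) and 1.44 without day 3 replicate 2 (adjusted p = 0.572), so that call rests on these libraries, the second of which holds the 1 nucleus with 89 of 127 endothelial-like Tnc UMIs.

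The log2 fold change of Tnxb was higher by 2.68 in endothelial-like nuclei (SE 0.630, edgeR adjusted p = 0.00570), where Tnxb went from 79.2 and 81.4 to 0 and 30.9 CPM, against 461 and 676 to 24.3 and 25.7 CPM in stromal nuclei. Without day 3 replicate 2 the only day 3 library left has no endothelial-like Tnxb UMI, and the difference was -4.23 (edgeR adjusted p = 0.918). No member was called in the corresponding test of immune-like against stromal nuclei.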

How the results depend on the processing

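No paired analysis was made, since the libraries are pools of mice and neither labels nor methods link an uninjured library to a day 3 library. Of the stromal results, Tnc (2.55 to 5.14) and Tnxb (-4.98 to -3.33) kept their direction and call in 16 of 16 alternatives. Tnn was also called without the low-count filter (2.62), in fibroblast-like nuclei only (5.46) and, with 1 library left out, ranged from 1.90 to 10.4, while Fn1 ranged from -0.082 to 1.55. Tlr4 was at 0.14 in all retained nuclei. Where a library was left out, the lone library of its group is assumed to vary like the other group. The 836 stromal calls became 1386 without the filter, 326 in fibroblast-like nuclei, 366 in nuclei without a Ttn or Neb UMI and 329 without IIFC-like nuclei, and ranged from 330 (without uninjured replicate 2) to 1086 with 1 library left out. The 1105 calls in all retained nuclei became 2548 without the filter and 389 with all barcodes, and, with 1 library left out, to 188 (uninjured replicate 1), 603 (uninjured replicate 2), 1669 (day 3 replicate 1) and 480 (day 3 replicate 2). The 278 endothelial-like calls became 703 without the filter and, in the same order of libraries left out, 0 (edgeR, with 689 at an unadjusted p under 0.05), 464, 52 and 3. The 38 immune-like calls became 22 without the filter and 1 under DESeq2, and likewise 0, 0, 6 and 0 (edgeR, with 289, 1503, 128 and 202 at an unadjusted p under 0.05). Immune-like Fn1 ranged from -0.55 to 2.73, and the endothelial minus stromal change of Tnxb from -4.23 to 3.03. The cause of these shifts was not tested. Of 705 levels, 617 moved by less than the spread between replicates, and 61 of the 88 that moved did so without integration. Of 240 shares, 126 moved, 54 with 1000 UMIs drawn and 72 without thinning. Of 248 fold changes of list genes, 157 kept their call, 90 lost it and 1 reversed. Settings chosen after seeing the data were those on fibroblast-like nuclei, IIFC-like nuclei, Ttn or Neb, the richest nuclei and the differences between classes. Depth limits Tnr, Tnn before injury and populations of few nuclei.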
